A study of Mus musculus with 8 samples.

Results

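The comparison described here set all 4 microarrays of CD4+ T cells from mice treated with an IL-6 receptor antibody (anti-IL-6R) against all 4 from mice given a control antibody, with the host as a covariate. It used 8 of the 8 arrays of the series. The members described are the genes whose 4 anti-IL-6R values all lay above, or all lay below, the 4 control values. Of 21511 genes measured, 1073 met that rule, 625 higher (2.91%) and 448 lower (2.08%) with anti-IL-6R.

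The mice were C57BL/6. Each was given transgenic CD4+ T cells specific for ovalbumin (OVA) and then dendritic cells carrying the OVA peptide, and CD4+ T cells were isolated on day 4 after that immunisation. Controls and treated animals thus shared the transfer and the immunisation. The 4 groups held 2 arrays each. Replicates 1 and 2 were tumour-free mice with control antibody, and replicates 3 and 4 were mice bearing MCA205-OVA, a fibrosarcoma made to express OVA, with control antibody. Replicates 5 and 6 were tumour-free mice with anti-IL-6R, and replicates 7 and 8 were tumour-bearing mice with anti-IL-6R. The series concerns a loss of Th1 responses through IL-6 in tumour-bearing mice, and its design names the antibody comparison in that host; the effect common to both hosts is a further comparison that the same arrays allow. The sources used here do not give the antibody clones, the doses, the ages or how many mice were pooled for a sample. The labels do not tie replicates to experiments, so a p-value reflects only how far these samples spread, which may be technical.

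IL-6 binds its receptor chain, encoded by Il6ra, and the complex signals through gp130, encoded by Il6st, to activate the transcription factor STAT3. In CD4+ T cells this pathway supports survival and shapes the choice between helper fates, favouring follicular helper and Th17 programmes over Th1. An antibody to the receptor blocks the protein, so the mRNA of the receptor is no check of the treatment.

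Every value below is the log2 signal of a gene's probe relative to the 75th percentile of its array, so 0 is that percentile itself and 1 unit is a 2-fold step. Between 53.1% and 59.8% of probes per array lay well above background, and arrays of the same group correlated at 0.992 or more over genes. Pan T cell and CD4 markers were well above background on all arrays for all 14 measured members, Cd3e at 6.19 to 6.47 and Cd4 at 5.15 to 5.65. Cd8b1, which marks CD8 T cells, was also measured, at 2.39 to 2.97. All control arrays lay in one column of the slide and all anti-IL-6R arrays in the other, so the antibody and the slide column cannot be told apart.

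The clearest shared difference was in Bbc3, which encodes PUMA, a BH3-only protein of the BCL2 family that starts mitochondrial apoptosis. On control replicates 1 to 4 Bbc3 measured 1.81, 1.67, 1.55 and 1.88, against 2.97, 2.81, 3.04 and 2.87 on anti-IL-6R replicates 5 to 8. No treated array came near a control array, in either host. Bbc3 rose by 1.20 ± 0.09 (SE, 4 arrays against 4), a fold of 2.29, with an adjusted p of 0.0155 in limma over all 21511 genes. The 2 hosts, which share no array, gave 1.15 (tumour-free) and 1.24 (tumour-bearing), and the test of the difference between them did not pass (adjusted p = 0.79).

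Gpr65, which encodes a proton-sensing receptor of lymphoid and myeloid cells, was the other gene past the threshold of 0.05. Its values were 2.95, 2.80, 2.61 and 2.59 on control replicates 1 to 4 and 3.48, 3.54, 3.37 and 3.25 on anti-IL-6R replicates 5 to 8. Every treated array lay above every control array, by a smaller margin than in Bbc3. Gpr65 rose by 0.67 ± 0.06, a fold of 1.59 (limma adjusted p = 0.032), and within hosts the difference was 0.63 (tumour-free) and 0.71 (tumour-bearing).

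These calls made up 0.0093% of genes for the higher direction, and no gene passed in the lower direction in limma. At an unadjusted p under 0.05 there were 1025 higher and 899 lower genes. The average antibody contrast of a fit of the 4 group means called 19 higher and 6 lower. Both calls were lost with the slide row as a block, where each row holds 1 control and 1 treated array (adjusted p = 0.203 for Bbc3 and 0.318 for Gpr65, with the same differences). They were also lost when replicate 1, 2, 6, 7 or 8 was left out and without a trend in the variance (0.109 and 0.116). Gpr65 alone lost its call without replicate 3 or 4 and without the host covariate (0.113). The difference of Bbc3 stayed between 1.12 and 1.25 over these and the other settings.

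**Figure D1:**
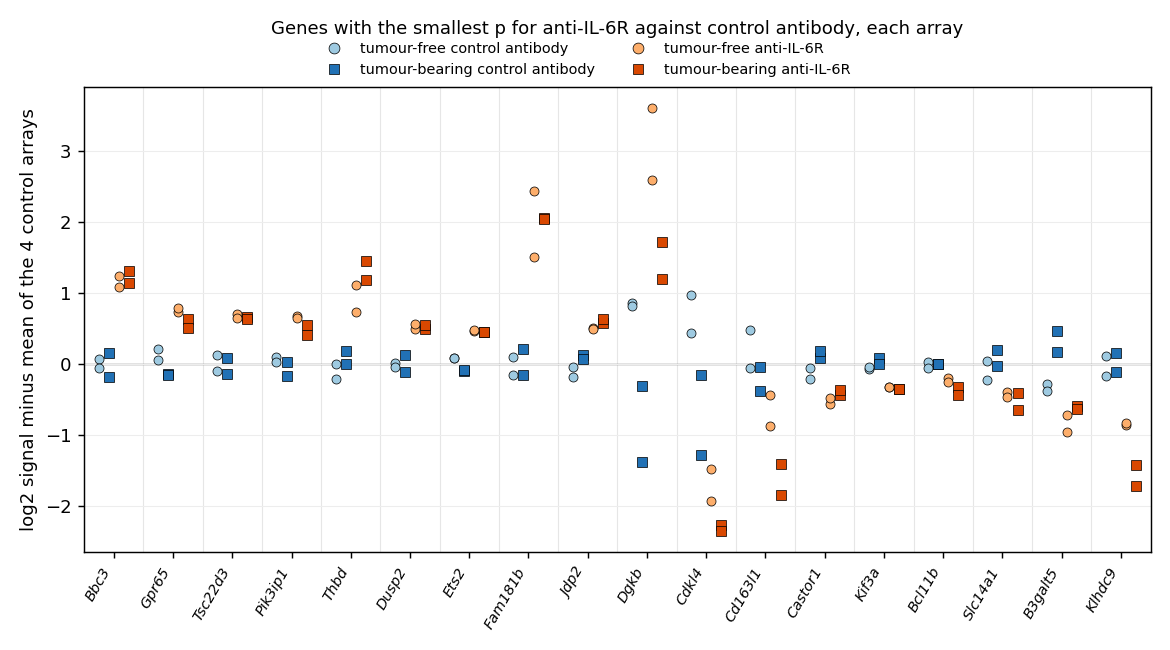
Log2 signal of each array minus the mean of the 4 control arrays, for the 10 genes with the smallest p among those higher on all anti-IL-6R arrays (left) and 8 lower ones (right); circles are tumour-free, squares tumour-bearing mice, blue control antibody and orange anti-IL-6R. Bbc3 and Gpr65 passed the threshold, with differences of 1.20 and 0.67; Dgkb, Fam181b and Cdkl4 lie farther apart but spread more between arrays.

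The upstream sequence of both genes is shown because they alone passed, with that of Tsc22d3, the next gene in order of p. RefSeq gives 3 promoter windows for Bbc3 and for Tsc22d3 and 1 for Gpr65. The 250 bases before the start are printed 5′ to 3′ on the gene's strand, in build GRCm38.p6. Capitals mark the FOXO core (GTAAACA, read here on the opposite strand) in Bbc3 and the STAT element (TTCNNNGAA) in Tsc22d3. For both genes the window holding the motif is printed; their other 2 windows held none of the 4 motifs searched, nor did that of Gpr65.
Bbc3, chr7:16310011-16310260, plus strand: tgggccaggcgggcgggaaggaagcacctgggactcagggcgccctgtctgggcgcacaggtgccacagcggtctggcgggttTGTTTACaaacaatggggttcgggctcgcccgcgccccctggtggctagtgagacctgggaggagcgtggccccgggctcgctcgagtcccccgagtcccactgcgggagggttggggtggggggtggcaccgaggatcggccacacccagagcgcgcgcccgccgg
Gpr65, chr12:98268385-98268634, plus strand: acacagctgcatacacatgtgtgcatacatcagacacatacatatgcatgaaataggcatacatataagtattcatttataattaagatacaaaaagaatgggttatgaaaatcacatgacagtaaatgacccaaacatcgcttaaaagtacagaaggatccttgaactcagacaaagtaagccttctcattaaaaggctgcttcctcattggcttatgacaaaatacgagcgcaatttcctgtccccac
Tsc22d3, chrX:140548572-140548821, minus strand: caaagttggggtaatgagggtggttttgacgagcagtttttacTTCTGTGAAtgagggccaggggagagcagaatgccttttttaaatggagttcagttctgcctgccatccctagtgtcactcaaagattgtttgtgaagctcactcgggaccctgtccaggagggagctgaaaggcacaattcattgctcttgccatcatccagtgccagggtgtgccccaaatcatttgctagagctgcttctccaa

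On either strand, the FOXO core was present in 3.17% of 32851 promoter windows and the STAT element in 7.02%. These are shares of windows, whereas a gene counts below if any of its windows held the motif. Some genes have several windows, so the gene counts cannot be set against those shares. Of the 10 higher genes with the smallest p, 9 had a window, and 1 of them held each motif, Bbc3 and Tsc22d3. Of 7 matched lower genes, 1 held the FOXO core (Cdkl4) and 1 the STAT element (B3galt5). The palindromic glucocorticoid response element (0.00913% of windows) and the AP-1 element TGANTCA (6.75%) were in none of them. A match of letters is not a binding site.

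The next 8 genes in order of p did not pass the threshold but kept all arrays apart. Tsc22d3, which encodes the glucocorticoid-induced leucine zipper GILZ, was at 5.54, 5.32, 5.28 and 5.51 in controls and at 6.11, 6.06, 6.08 and 6.05 with anti-IL-6R. The treated arrays were nearly equal across hosts, and the difference was 0.66 ± 0.07 (limma adjusted p = 0.068). Its second probe differed by 0.78, also without overlap. Pik3ip1, an inhibitor of PI3-kinase, was at 3.61, 3.54, 3.34 and 3.53 in controls and 4.19, 4.16, 4.05 and 3.91 in treated mice, a difference of 0.57 ± 0.06 (adjusted p = 0.081). The tumour-free arrays of each antibody lay somewhat above the tumour-bearing ones, and 1 of its other 2 probes did not overlap either.

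Dusp2, a nuclear phosphatase that switches off MAP kinases, measured 6.70, 6.65, 6.57 and 6.81 in controls and 7.18, 7.25, 7.18 and 7.23 with anti-IL-6R (difference 0.53 ± 0.06, limma adjusted p = 0.081). It was among the brightest of these genes and its treated arrays were alike in the 2 hosts. Ets2, an ETS family transcription factor, was at 2.02, 2.01, 1.83 and 1.85 against 2.40, 2.41, 2.39 and 2.38 (0.47 ± 0.06, adjusted p = 0.091). Jdp2, a repressor of AP-1 activity, was at -0.83, -0.69, -0.53 and -0.58 against -0.15, -0.16, -0.08 and -0.02 (0.56 ± 0.07, adjusted p = 0.11). For both, the control arrays of the 2 hosts stood apart from each other, and the treated arrays were closer together.

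Thbd encodes thrombomodulin, an anticoagulant receptor best known on endothelium. It measured -2.26, -2.46, -2.25 and -2.08 in controls and -1.53, -1.14, -0.81 and -1.08 with anti-IL-6R, a difference of 1.12 ± 0.13 (limma adjusted p = 0.081). Fam181b and Dgkb, a diacylglycerol kinase, had the widest differences among the 10. Neither was well above background on any control array, so their folds are bounds: at least 2.80-fold for Fam181b (adjusted p = 0.091) and at least 2.87-fold for Dgkb (adjusted p = 0.16), which 4 and 3 of the treated arrays measured.

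Most of the differences among the 1073 genes without overlap were small. Their size ran from 0.04 to 2.79 with a median of 0.31, and 77 higher and 16 lower genes differed at least 2-fold. Of the 1073, 813 had an unadjusted p under 0.05. Because every treated array must lie on one side, each of these genes has the same sign in both hosts by construction, and that is no result.

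Over all genes the antibody differences of the 2 hosts had no positive correlation. The antibody difference in tumour-free mice and that in tumour-bearing mice came from separate arrays, and 8600 of the 21511 genes had the same sign in both. Across genes, which are not independent, Pearson's r between the 2 differences was -0.09 and Spearman's rho -0.15. The fit of 4 group means called 6 genes in tumour-free mice (0.0279%; 4 higher and 2 lower) and 1267 in tumour-bearing mice (5.89%; 440 higher and 827 lower). Of the 440 called higher in tumour-bearing mice, 179 (40.7%) were above 0 in tumour-free mice, with medians of 0.96 and -0.07. Of the 827 called lower, 283 (34.2%) were below 0 there, with medians of -0.58 and 0.04. The tumour-bearing count fell to 19 without replicate 8, to 215 without replicate 3, to 263 without replicate 4, to 822 without replicate 1 and to 830 without replicate 2; the tumour-free count was 0 to 30 when single arrays were left out, with 30 without replicate 6 and 0 without replicate 1.

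**Figure D2:**
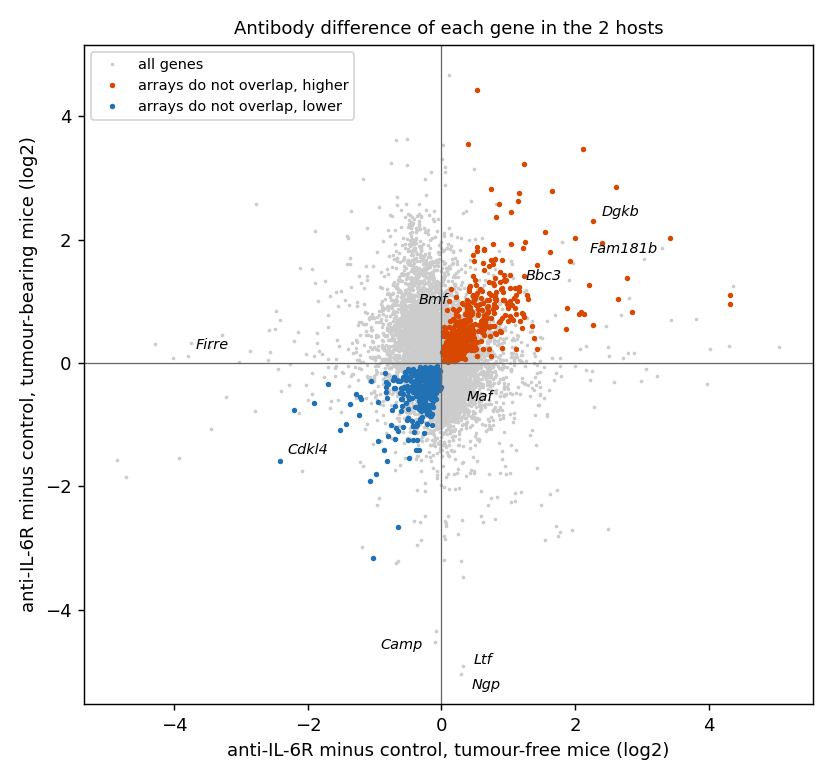
Antibody difference (log2, anti-IL-6R minus control) in tumour-free mice on the x axis and in tumour-bearing mice on the y axis, 1 point per gene; orange and blue points are the 625 and 448 genes whose arrays do not overlap. Bbc3, Fam181b and Dgkb lie near equal values in both hosts, whereas Camp, Ltf and Ngp differ in tumour-bearing mice and Firre in tumour-free mice.

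The difference between the hosts itself passed in 9 genes (0.0418%; 5421 at an unadjusted p under 0.05), and the average over hosts describes neither host for these. The count was 0 without a filter on dim probes or with the 75th percentile taken over bright probes, and 3 to 466 with single arrays left out (3 without replicate 8, 303 without replicate 6, 466 without replicate 7). Camp, Ltf, Ngp and Mpo, neutrophil granule genes, were high only on the tumour-bearing control arrays. Camp, singled out after its values were seen, measured 2.95 and 2.81 there and between -1.83 and -1.16 on the other 6 arrays. Firre, a long noncoding RNA also chosen after seeing its values, was at 0.28 and 0.40 on the tumour-free control arrays and at -2.91 to -3.67 on the others. These genes account for 5 of the 6 that the average contrast of the 4-group fit called lower, the other being Tox2, a factor of follicular helper cells that also passed the test between hosts. None of the 6 kept all arrays apart, and 18 of the 25 genes called by that contrast did.

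Within the BCL2 family, 4 of 15 measured genes (26.7%) were higher on all treated arrays and none was lower. Over all genes these shares were 2.91% and 2.08%, the background for this and each further list. The lists were chosen with earlier results of these data known, so their shares are descriptions. Besides Bbc3 these were Bcl2l11 (BIM, also a BH3-only protein), Bid and Bok. Bcl2l11 measured 2.40, 2.23, 2.30 and 2.35 in controls and 2.72, 2.47, 2.54 and 2.48 with anti-IL-6R, a difference of 0.23 ± 0.07 (limma adjusted p = 0.46). Its other probes, all dimmer, overlapped, with differences of 0.11, -0.11 and 0.18. Bok differed more, with -3.15 to -2.79 in controls against -2.22 to -1.72 (2.14-fold, adjusted p = 0.16). Bid was 0.10 higher (adjusted p = 0.62). The family's median was 0.06 against -0.01 for all genes. Bmf, another BH3-only gene, named here after its values were seen, did not share a direction: its difference was -0.46 in the tumour-free and 0.84 in the tumour-bearing host, and it passed the test of the difference between hosts.

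Several genes that FOXO factors or glucocorticoids induce in lymphocytes also kept the arrays apart. FOXO factors are held inactive by PI3-kinase signalling and maintain the survival and homing genes of resting T cells. In a FOXO list put together after the values were seen, 7 of 25 measured genes (28%) were higher without overlap and none lower (Bbc3, Bcl2l11, Il7r, Pik3ip1, Sesn1, Tsc22d3 and Txnip), with a list median of 0.06; since the list was chosen with the values known, the count is a description. Il7r, the IL-7 receptor chain that sustains resting T cells, measured 5.97, 5.87, 5.47 and 5.71 in controls and 6.37, 6.26, 6.30 and 6.26 in treated mice. Its difference was 0.54 ± 0.08 (limma adjusted p = 0.16; 0.40 tumour-free, 0.69 tumour-bearing), and its second probe did not overlap either. Txnip, a brake on glucose uptake, was at 6.05 to 6.29 in controls and 6.52 to 6.62 with anti-IL-6R (0.40 ± 0.07, adjusted p = 0.17). Sesn1, a stress-induced inhibitor of mTORC1 signalling, differed by 0.20 ± 0.07 (adjusted p = 0.52).

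Among glucocorticoid response genes 3 of 14 (21.4%, against 2.91% of all genes) were higher without overlap, namely Tsc22d3, Il7r and the clock gene Per1. When replicate 4 was left out it was 5, and the count over all genes rose too, from 625 to 893. Per1 measured 2.60 to 2.73 in controls and 3.02 to 3.15 with anti-IL-6R, a difference of 0.41 ± 0.06 (limma adjusted p = 0.16). The list's median was 0.13, with 13 of its 14 members above 0. It was the only clock gene of 16 without overlap. Zfp36l2, an RNA-binding protein that promotes mRNA decay and quiescence, differed by 0.76 ± 0.11 (adjusted p = 0.16) and was at 5.81 to 6.33 in controls and 6.64 to 6.93 in treated mice. In the list of naive and quiescence genes, 2 of 20 were higher without overlap, Il7r and Txnip.

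Feedback phosphatases of the MAP kinase pathway had 3 of 12 members (25%, against 2.91%) higher without overlap, Dusp2, Dusp6 and Dusp16. Dusp6, which acts on ERK, was 0.17 ± 0.06 higher and Dusp16, which acts on JNK and p38, 0.27 ± 0.10 (limma adjusted p = 0.47 and 0.49). The count of lower members, 0, became 2 without replicate 1 or replicate 8. Over all genes the lower count rose there from 448 to 768 and 659. Of 12 AP-1 factors only Fosl2 kept the arrays apart (0.34 ± 0.07, adjusted p = 0.29), and the AP-1 median was -0.23 in the tumour-free host but 0.45 in the other. In the TGF-beta list 3 of 17 genes, Tgfbr1, Skil and Tgif1, were 0.10 to 0.17 higher (adjusted p between 0.53 and 0.62).

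Interferon-stimulated genes had more members apart than any other list. Of 44 measured, 12 (27.3%, against 2.91% of all genes) were higher on all treated arrays, none was lower, and none passed the threshold. Without replicate 5 the count was 19, and that over all 21511 genes rose too, from 625 to 1168. They were the guanylate-binding proteins Gbp4, Gbp5, Gbp6 and Gbp7, the immunity-related GTPases Iigp1, Igtp and Irgm1, the chemokines Cxcl9 and Cxcl10, and Irf9, Oasl1 and Xaf1. Cxcl9 was apart by a very narrow gap, with treated replicate 6 at -0.409 and control replicate 1 at -0.413. The tumour-bearing host gave a Cxcl9 difference of 1.01 and the tumour-free host 0.11 (limma adjusted p = 0.074 for the difference between hosts). The list's median was 0.20 (0.31 tumour-free, 0.13 tumour-bearing), and 41 of the 44 lay above 0.

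Cxcl10, a ligand of the Th1 chemokine receptor CXCR3, measured 0.62, 0.50, 0.68 and 0.94 in controls and 0.98, 1.49, 1.56 and 1.54 with anti-IL-6R. Replicate 5 lay only just above the highest control, and the difference was 0.71 ± 0.12 (limma adjusted p = 0.17). Oasl1, an antiviral regulator, was at 1.56, 1.28, 1.74 and 1.60 against 1.98, 2.48, 2.07 and 2.25, a difference of 0.65 ± 0.13 (adjusted p = 0.27). Gbp6, which attacks vacuoles of intracellular microbes, was at 1.04, 0.92, 1.02 and 0.90 against 1.27, 1.33, 1.30 and 1.42, 0.36 ± 0.07 higher (adjusted p = 0.22). Irgm1 was 0.29 ± 0.07 higher (adjusted p = 0.30), and 3 of its 4 probes did not overlap. Macrophage markers, whose cells also make Cxcl9 and Cxcl10, had a median of 0.39. In multiples of each array's 75th percentile they summed to 243 to 360 in controls and 322 to 396 in treated mice. Within hosts the sums did not overlap, at 295 to 318 against 322 to 380 (tumour-free) and 243 to 360 against 364 to 396 (tumour-bearing). The part of macrophages in the values of the interferon-stimulated genes was not tested.

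**Figure D3:**
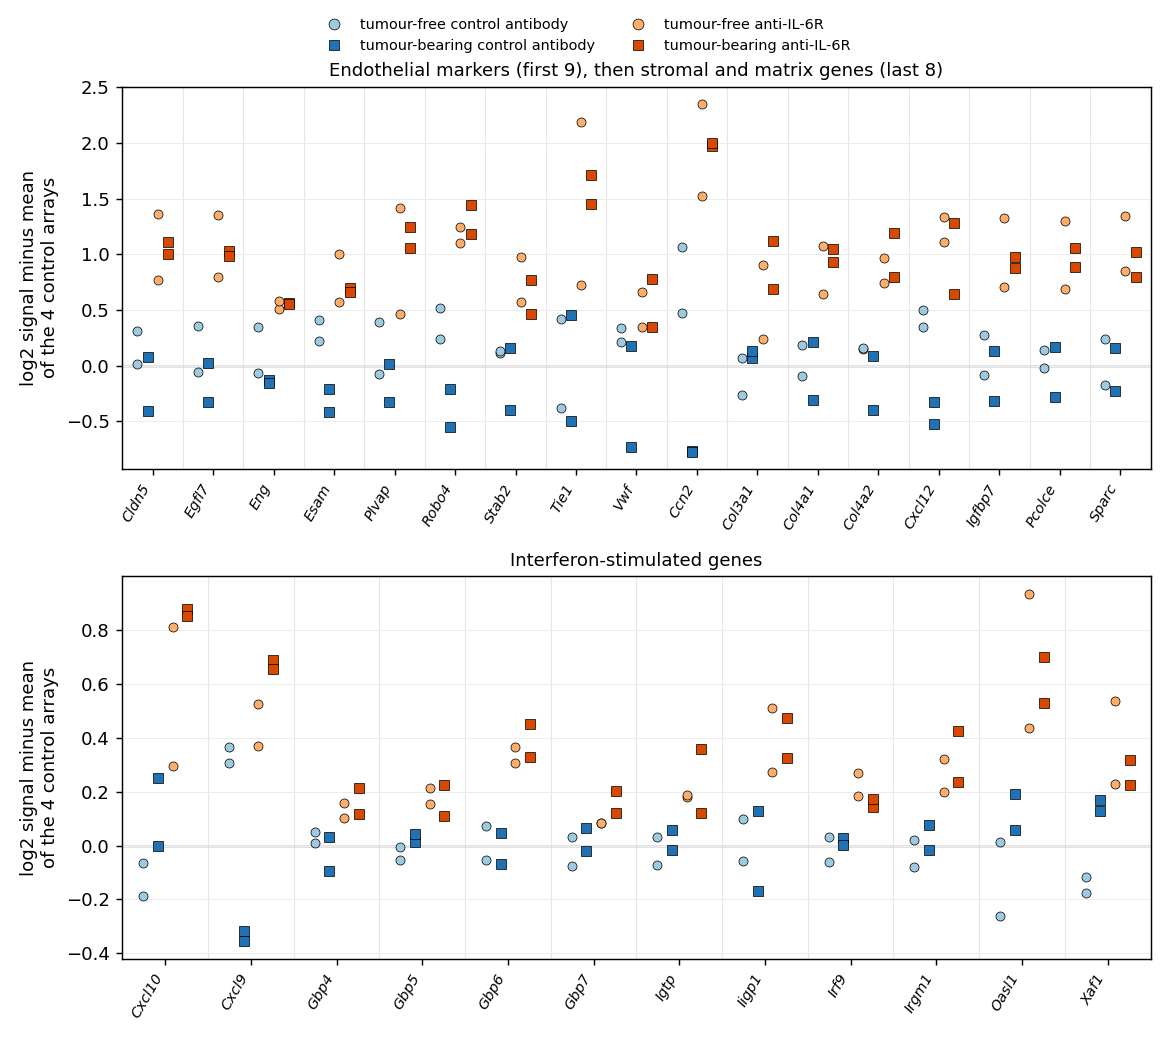
Log2 signal of each array minus the mean of the 4 control arrays, for the endothelial (9) and stromal or matrix genes (8) in the upper panel and the 12 interferon-stimulated genes in the lower panel whose arrays do not overlap; symbols and colours mark host and antibody. Most vessel and matrix genes are about 0.5 to 2 units higher, while most interferon-stimulated genes are less than 0.5 higher.

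The list with the largest share of members apart belonged to another cell type. Of 13 measured endothelial markers, 9 (69.2%, against 2.91% of all genes) were higher on all treated arrays and none lower: Cldn5, Egfl7, Eng, Esam, Plvap, Robo4, Stab2, Tie1 and Vwf. The median was 0.73 (0.65 tumour-free, 0.99 tumour-bearing). Robo4, a guidance receptor of vessels, measured -1.43, -1.71, -2.50 and -2.15 in controls and -0.84, -0.70, -0.77 and -0.50 with anti-IL-6R, a difference of 1.24 ± 0.20 (limma adjusted p = 0.16). Cldn5, a tight junction protein, was at -0.79, -1.09, -1.51 and -1.03 against -0.34, 0.26, 0.00 and -0.10 (1.06 ± 0.17, adjusted p = 0.16). In both, the treated arrays of the 2 hosts were alike and every control lay below them. Egfl7, secreted by endothelium, was at 0.50 to 1.18 against 1.62 to 2.18, and Stab2, a scavenger receptor of sinusoidal endothelium, at 1.13 to 1.68 against 1.99 to 2.50 (adjusted p = 0.16 and 0.27).

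Summed over the 13 markers, the endothelial signal was 8.54 to 11.4 multiples of the array's 75th percentile in controls and 14.0 to 19.8 in treated mice. The defining genes Cdh5, Kdr and Flt1 were 0.44, 0.61 and 0.90 higher with overlapping arrays, and Pecam1, which lymphocytes also express, differed by -0.02. Only Tie1 was not well above background on any control array. Stromal and matrix genes, in a list put together after the values were seen, had 8 of 16 measured members (50%) higher without overlap and none lower, with a median of 0.71. Ccn2, a matricellular growth factor, differed by 1.96 ± 0.34, Sparc, a collagen-binding glycoprotein, by 1.00 ± 0.15, and Cxcl12, the ligand of CXCR4, by 1.09 ± 0.18 (limma adjusted p between 0.16 and 0.17). That list summed to 18.8 to 22.8 in controls and to 30.7 or more on each treated array. Pan T cell and CD4 markers summed to 1077 to 1284 in controls and 1006 to 1219 in treated mice, which overlap when the hosts are pooled. Within the tumour-free host the sums also overlapped, at 1077 to 1207 against 1153 to 1219. Within the tumour-bearing host the treated sums were lower without overlap, at 1269 to 1284 against 1006 to 1120. There 1 of the 14 markers lay above 0, and the median was -0.27. More cells of a type and more RNA per cell cannot be told apart in these bulk samples, and the part of endothelial or stromal RNA in the other differences was not tested.

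Other cell types showed less separation. Macrophage markers had 2 of 20 members higher without overlap, Cd14 (0.84 ± 0.21) and Ms4a7 (0.37 ± 0.08), and dendritic, natural killer and platelet markers 1 each, Zbtb46, Klre1 and Pf4 (limma adjusted p between 0.29 and 0.52 for the 5). Natural killer markers summed to 37.3 to 52.3 in controls and 52.5 to 60.2 with anti-IL-6R, a narrow gap. Dendritic cell markers summed to 587 to 822 and 788 to 850. B cell, plasma cell, CD8 T cell, erythroid, neutrophil, and basophil and mast cell markers had no member without overlap. Their medians were 0.83 (tumour-free) and -1.04 (tumour-bearing) for erythroid, 0.30 and -1.42 for neutrophil, and -0.16 and 0.71 for B cell markers. The test of the difference between hosts passed for 4 of 19 neutrophil genes and for no member of the erythroid or B cell lists.

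**Figure D4:**
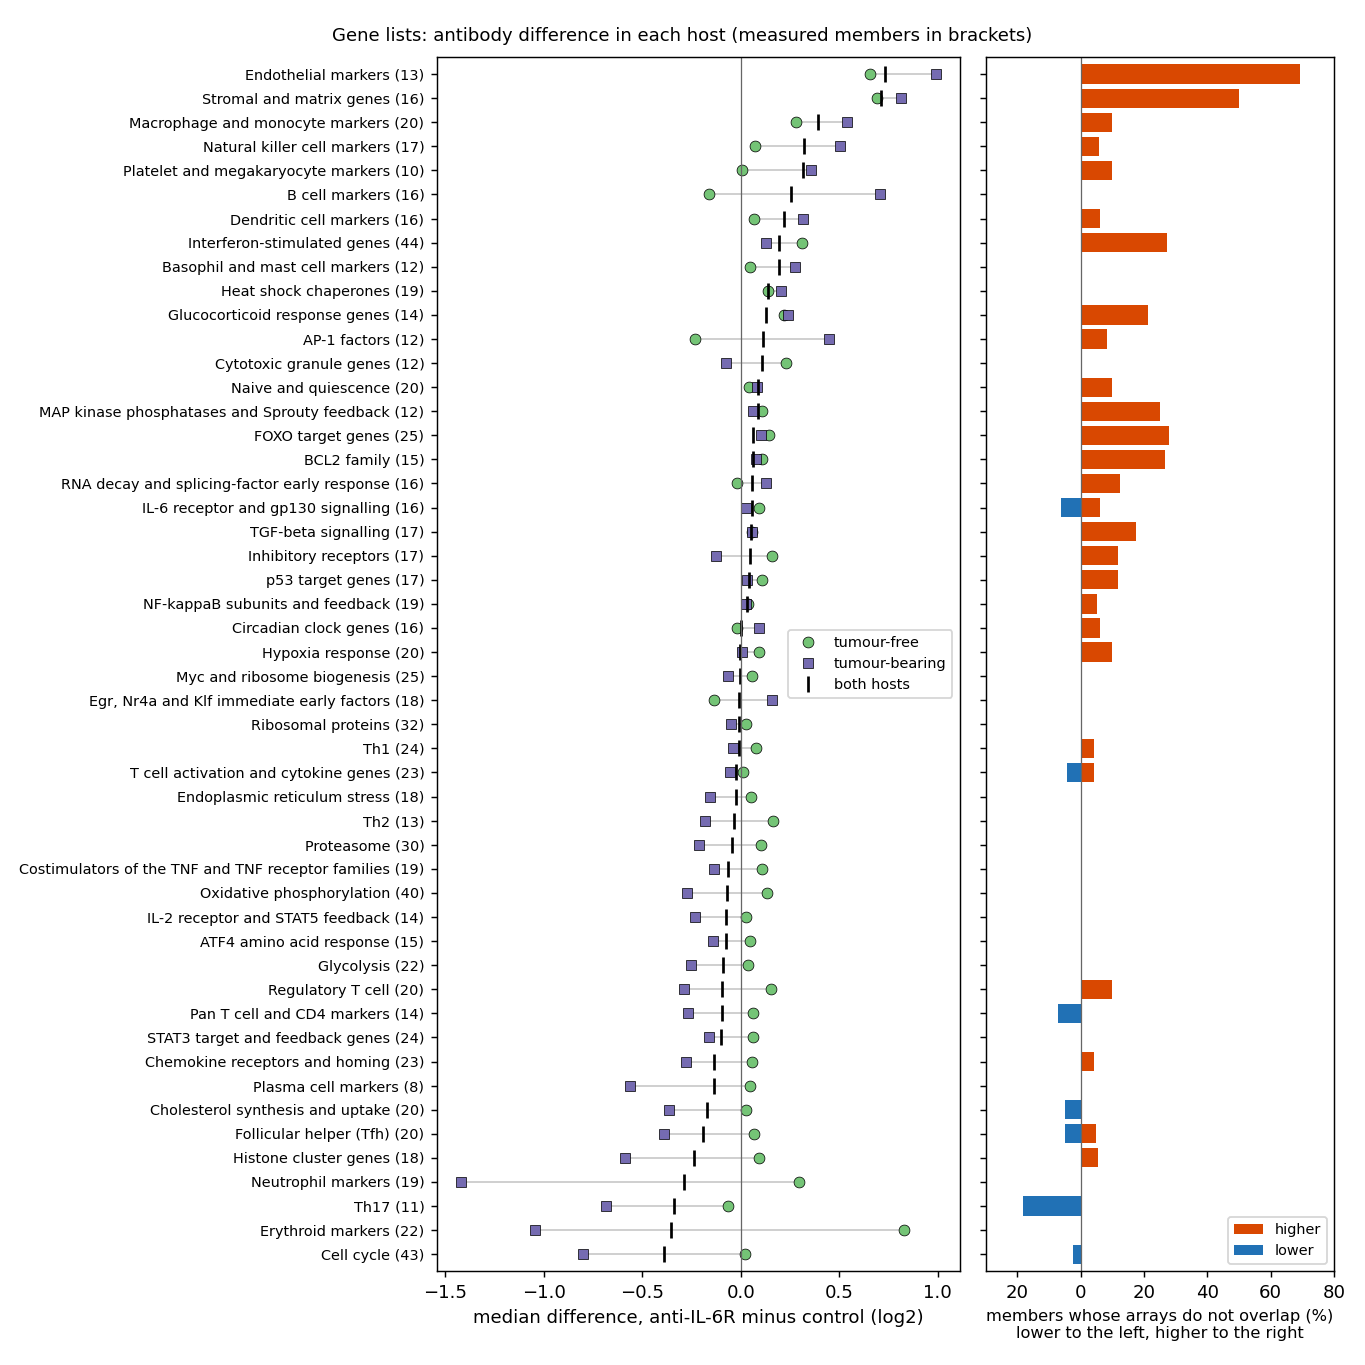
Left, median antibody difference (log2) of each gene list in tumour-free mice (circles), in tumour-bearing mice (squares) and in the model of both hosts (bars); right, percentage of measured members whose arrays do not overlap, higher to the right and lower to the left. Endothelial and stromal lists lie at 0.65 or more in both hosts, while the medians of the erythroid, neutrophil, B cell and cell cycle lists lie farther apart in the 2 hosts, a difference tested only gene by gene.

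With all 8 arrays, fewer genes were lower than higher on all treated arrays, and no more than 2 of any list were. This order turned without replicate 2 (1022 higher and 1457 lower) and without replicate 5 (1168 and 1296), where 30 cell cycle and 4 Th17 genes were lower. Cdkl4, a cyclin-dependent kinase-like gene, measured -1.27, -1.81, -2.40 and -3.53 in controls and -3.73, -4.18, -4.51 and -4.60 with anti-IL-6R. It was well above background on all controls and on no treated array, so it was at least 3.50-fold lower (limma adjusted p = 0.16); the lowest control array came close to the treated ones. Cd163l1, a scavenger receptor family member, differed by -1.14 ± 0.20 (adjusted p = 0.19), with -1.33 to -0.47 in controls against -2.79 to -1.38.

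Bcl11b, the zinc finger factor that maintains T cell identity, was at 4.05, 3.96, 4.03 and 4.02 in controls and 3.83, 3.77, 3.69 and 3.58 in treated mice. Its control arrays were close together in both hosts and its difference was -0.30 ± 0.06 (limma adjusted p = 0.28). It was the only pan T cell marker of 14 without overlap. Its dimmer second probe overlapped, with -0.04 in the tumour-free and -0.35 in the tumour-bearing host. Castor1, the arginine sensor upstream of mTORC1, differed by -0.46 ± 0.09, Kif3a, a kinesin motor subunit, by -0.33 ± 0.07, and Slc14a1, a urea transporter, by -0.48 ± 0.10 (adjusted p between 0.24 and 0.29). B3galt5, a galactosyltransferase, differed by -0.72 ± 0.16 and Klhdc9, which was well above background on no treated array, was at least 1.45-fold lower.

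Of the IL-6 receptor axis, Il6st alone among the 6 genes followed kept the arrays apart in the lower direction. It measured 2.57, 2.47, 2.64 and 2.50 in controls and 2.38, 2.27, 2.30 and 2.17 with anti-IL-6R, a difference of -0.26 ± 0.07 (limma adjusted p = 0.38), and its dimmer second probe overlapped. Il6ra was at 5.42 to 5.83 in controls and 5.77 to 5.85 in treated mice, 0.12 ± 0.08 higher with overlap. Osmr, the receptor of the related cytokine oncostatin M, was not well above background on any control array and at least 1.63-fold higher on treated ones (adjusted p = 0.35). The STAT3-induced feedback inhibitor Socs3 was at 4.41, 4.49, 4.58 and 5.28 against 4.03, 4.59, 4.05 and 4.06, a difference of -0.51 ± 0.21 (adjusted p = 0.54). Stat3 itself, Bcl3 and Pim1 differed by -0.13, -0.22 and -0.12 with overlapping arrays. None of 24 STAT3 target and feedback genes kept the arrays apart, 3 had an unadjusted p under 0.05, all lower, and their median was 0.06 (tumour-free) and -0.16 (tumour-bearing).

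Helper T cell genes showed no shared difference past the threshold. Maf, which drives Il4, Il21 and Il10, measured 1.64, 1.43, 2.67 and 2.64 on control replicates 1 to 4, and 1.80, 1.79, 2.00 and 1.86 with anti-IL-6R. Only the tumour-bearing controls stood high, so the antibody difference was 0.27 in the tumour-free and -0.73 in the tumour-bearing host (limma adjusted p = 0.057 for the difference between hosts). Il4, a cytokine of Th2 and follicular helper cells, was also highest on the tumour-bearing controls, at 1.49 and 1.12, with -0.36 and -0.25 on the tumour-bearing anti-IL-6R arrays and -1.42 to -0.86 on the 4 tumour-free arrays. Il21, a follicular helper cytokine, was at 0.47 and 1.16, at -0.90 and -0.33, and at -2.70 to -2.04 on the same sets of arrays. Both were thus lower with anti-IL-6R in the tumour-bearing host (-1.61 and -1.43) but still above every tumour-free array, and the tumour-free differences were 0.33 and -0.01. A second Il21 probe, much dimmer, did not show the fall, with 0.04 in the tumour-bearing and 0.64 in the tumour-free host. Ifng, the Th1 cytokine, was at 2.22, 2.34, 1.25 and 1.93 in controls and 1.63, 1.98, 1.86 and 2.47 with anti-IL-6R, which overlap (difference -0.47 tumour-free, 0.58 tumour-bearing). Its shared difference was 0.05 ± 0.25 and took the other sign when replicate 3 or replicate 8 was left out.

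Il10 was -0.05 ± 0.35 and changed sign in the same way without replicate 1 or replicate 5. Tbx21, Bcl6 and Gata3, the factors of Th1, follicular helper and Th2 cells, differed by -0.25, -0.16 and -0.23. In tumour-bearing mice alone these were -0.60, -0.39 and -0.47, and in the tumour-free host 0.11, 0.08 and 0.00. Foxp3, the factor of regulatory T cells, differed by -0.12 ± 0.07 (limma adjusted p = 0.61). In the Th17 list 2 of 11 genes (against 2.08% of all genes) were lower without overlap, Csf2, at least 1.44-fold lower, and Il17re, at -0.87 ± 0.25; both were dim. The count was 4 without replicate 5, where that over all genes rose from 448 to 1296. It was 1 with the median probe of a gene, and 0 with normexp background correction or with only probes well above background on all 8 arrays. None of the 11 was above 0, with a median of -0.34 (-0.06 tumour-free, -0.68 tumour-bearing). Among Th1 genes 1 of 24 was higher without overlap, Havcr2 (TIM-3; 0.45 ± 0.12), and among follicular helper genes Cxcr4, the receptor of Cxcl12, was higher (0.63 ± 0.12, adjusted p = 0.22) and Il6st lower. Regulatory T cell genes had 2 of 20 higher without overlap, Entpd1 (CD39) and Cd83, by 0.37 and 0.26. Both went against most of their list, of which 6 of 20 lay above 0. Its median was -0.09 (0.15 tumour-free, -0.29 tumour-bearing). Of the 20 follicular helper genes 5 lay above 0, with a median of -0.19 (0.06 tumour-free, -0.39 tumour-bearing).

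**Figure D5:**
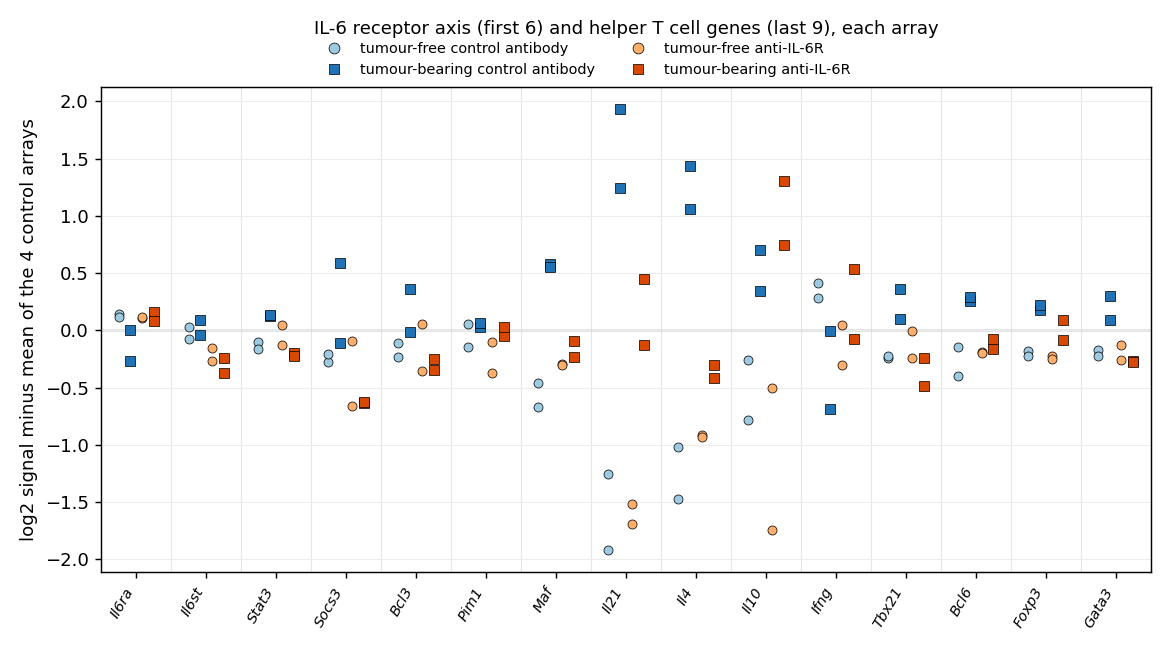
Log2 signal of each array minus the mean of the 4 control arrays, for 6 genes of the IL-6 receptor axis and 9 helper T cell genes; symbols and colours mark host and antibody. Il6st is the only gene whose treated arrays all lie on one side of the controls, and Maf, Il21 and Il4 are high on the tumour-bearing control arrays.

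Cell cycle and metabolic genes showed no shared difference past the threshold in limma. Of 43 cell cycle genes measured, Cdc45, a replication factor, was the only one lower without overlap (-0.37 ± 0.11, limma adjusted p = 0.44). Without replicate 5 the count was 30, and that over all genes rose too, from 448 to 1296. A second Cdc45 probe, somewhat dimmer, overlapped and differed by 0.12 (0.31 tumour-free, -0.08 tumour-bearing). The median of the 43 genes was 0.02 in the tumour-free and -0.80 in the tumour-bearing host. There 37 of them passed the threshold, all lower, against 827 lower of all 21511 genes. The calls in that host depended on the setting. Over all genes they fell from 1267 to 25 without a filter on dim probes and to 87 without a variance trend. Histone cluster genes had medians of 0.09 and -0.59, and 2 of 18 lay above 0 in the model of both hosts. H2ac6, a dim gene, was the only member apart, and it was higher (0.58 ± 0.15, limma adjusted p = 0.38). Oxidative phosphorylation genes were at 0.13 and -0.27, proteasome subunits at 0.10 and -0.21, and ribosomal proteins at 0.02 and -0.05, with no member apart in any of these lists. The test of the difference between hosts passed for no member of the cell cycle, histone, oxidative phosphorylation, proteasome or ribosomal lists. Cholesterol genes had 1 of 20 lower without overlap, Hsd17b7 (-0.28 ± 0.09). Of the 49 lists chosen with earlier results of these data known, 31 had medians on opposite sides of 0 in the 2 hosts, and 20 had no member without overlap.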

How the data were processed

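CD4+ T cell RNA (0.1 µg per sample) was measured on 8 one-colour arrays of 1 slide. The authors deposited scanner output. The submitters' processing notes name Agilent Feature Extraction (version 10.10.1.1). Its intensity values are background-subtracted per the file headers, which name build mm9 for the probes. The deposited value table holds log2 values that equalled the log2 signal minus the 75th percentile of the array, with an offset of at most 0.01 on any array.

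Values were recomputed from the scanner files: outlier spots were dropped (60 to 95 per array), spots of a probe averaged, and the array's 75th percentile (500.4 to 526.5) subtracted after log2. Kept were probes that both arrays of 1 or more groups measured well above background (32041 of 56587), and each gene took its probe with the highest mean (21511 genes; 6929 had several). Names followed RefSeq by accession for 33890 probes and by symbol for 9945; 12752 kept the file's name.

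limma 3.58.1 (R 4.3.3) fitted host and antibody additively with an intensity trend (5 residual degrees of freedom), and 4 group means for effects within and between hosts. Tests were two-sided, with Benjamini-Hochberg adjustment over all genes, and the model was tested on simulated data. A bound sets the bright group's mean against the dim group's, with the dim signals raised to the lowest signal called well above background on their array.

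Members and lists were chosen with earlier results of these data known. Named genes were the 10 in each direction without overlap and with the smallest p (fewer than 5 passed), the IL-6 axis, helper genes (1 is not reported here), and up to 4 members without overlap per list. To 49 lists, 2 were added after the values were seen. Alternatives covered background, scaling, filters, probe choice, variance model, slide row and single arrays. Array number limits the precision. Probe sequences were not used here.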

Additional observations from a re-analysis of the deposited data

Results flagged for a closer look

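Over the 4 arrays of an antibody, 9 of 154 sets of values of the named genes held an array far from the rest. A chance rate of 1 in 20 would hold for 4 arrays of a single group. Each set here mixes both hosts, and many of the genes were picked for their separation, so the count cannot be set against that rate. With anti-IL-6R the outlying arrays were replicate 5 for Bok (-2.22), Cxcl10 (0.98), Gata3 (5.16) and Txnip (6.62), replicate 6 for Socs3 (4.59) and replicate 7 for Dusp6 (3.18). With control antibody they were replicate 1 for Pim1 (4.12), replicate 3 for Cxcr4 (1.41) and replicate 4 for Stab2 (1.13). In Bok, Cxcl10 and Dusp6 the outlying treated array is the one nearest to the controls, so the gap between the antibodies is narrowest there.

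The antibody effect differed between the hosts in 9 genes by the interaction term of the 4-group fit. They are Apol11b, Bmf, Camp, Firre, Ltf, Mpo, Ngp, Tox2 and 4930523O13Rik. None of them is among the 1073 genes whose arrays do not overlap.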

How the results depend on the processing

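Of 77 named genes, 75 kept the direction of the difference in each other setting that measured them (20, or 19 for genes that a stricter filter dropped), and 15 passed the threshold in at least 1. Ifng ranged from -0.19 (without replicate 3; -0.18 without replicate 8) to 0.23 with single arrays left out and was -0.040 with array weights. Il10 ranged from -0.27 to 0.31 (without replicate 5; 0.17 without replicate 1) and was 0.18 with normexp background correction. The cause was not tested. No setting moved the median of all genes by more than 0.1.

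Main counts were 2 higher and 0 lower genes for both hosts, 9 for the difference between hosts, 6 tumour-free, 1267 tumour-bearing, and 625 higher and 448 lower genes without overlap. Normexp gave 1125 higher without overlap and 21 tumour-free. Quantile normalization gave 4 higher for both hosts, 743 lower without overlap and 5 for the difference between hosts. The percentile over bright probes gave 4, 0 for the difference between hosts and 3 tumour-free. Without a filter the difference between hosts gave 0 and tumour-bearing mice 25; with probes bright on all 8 arrays the difference gave 1 and tumour-free mice 1; with the median probe 3 and 2. Without a variance trend the counts were 0 for both hosts, 16 for the difference, 11 tumour-free and 87 tumour-bearing, and with array weights 12 for both hosts and 3 tumour-free. The average contrast of the 4-group fit gave 19 higher and 6 lower, and the slide row as a block 0.

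Leaving out single arrays gave 0 to 11 higher genes for both hosts (11 without replicate 5, 1 without replicate 3 or replicate 4, 0 without any other) and 0 lower in each case. The difference between hosts ranged from 3 to 466 (466 without replicate 7, 303 without replicate 6, 62 without replicate 4, 20 without replicate 1, 14 without replicate 3, 6 without replicate 2, 3 without replicate 8), tumour-free mice from 0 to 30 and tumour-bearing mice from 19 to 1723. Genes without overlap ranged from 758 to 1249 higher (1249 without replicate 1, 1168 without 5, 1022 without 2, 989 without 8) and from 576 to 1457 lower (1457 without replicate 2, 1296 without 5, 768 without 1, 704 without 3), since fewer arrays must then be kept apart.

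No paired analysis by replicate number was possible because the groups share none. The slide row, which holds 1 control and 1 treated array of the same host, was the one block fitted, and it ended both calls (adjusted p = 0.203 for Bbc3 and 0.318 for Gpr65). Genes near background are limited by the lowest signal called well above it, 24.2 to 36.3 before scaling. The cause of these changes with the processing was not tested.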
